A study of Arabidopsis thaliana with 36 samples.

Results

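Pectinesterases, also called pectin methylesterases (PMEs), and the proteins that inhibit them (PMEIs) were followed through an RNA-seq study of the Arabidopsis tpst mutant and the peptide hormone phytosulfokine (PSK). Members were the genes whose deposited description contains the word pectinesterase. This rule gave 71 of the 32833 genes in the count table, of which 27 are described as a pectinesterase joined to a pectinesterase inhibitor, 34 as a pectinesterase alone and 10 as an inhibitor. Shoots and roots of plants at day 11 were profiled separately in 12 groups of 3 libraries. In each tissue, 4 groups were tpst plants exposed to PSK at 10 nM, with exposures of 30 min, 2 h, 5 h and 11 days, and the others were tpst without PSK and the wild type Col-0 without PSK. The tpst-1 line carries a T-DNA insertion in the Col-0 background, so every PSK-treated plant was also a mutant, and no Col-0 plants received PSK. TPST encodes the tyrosylprotein sulfotransferase, and the mutant therefore lacks the sulfated forms of other peptides as well as PSK. For the exposures of 30 min, 2 h and 5 h the liquid medium was replaced by fresh medium with PSK, whereas untreated plants kept their medium, so at these times PSK and the change of medium cannot be told apart. The plants exposed for 11 days were germinated in the PSK medium. Each library was made from pooled seedlings, and the replicates are described as independent biological replicates. Shoots and roots were separated from the seedlings, so a shoot and a root library can come from the same plants.

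Pectin is secreted into the plant cell wall in a highly methylesterified form. PMEs remove the methyl groups from homogalacturonan, and the bare stretches can bind calcium and stiffen the wall or become a substrate for pectin-degrading enzymes. PMEIs bind the enzymes and block their activity, and many plant PMEs also carry an inhibitor-like N-terminal region that is removed when the enzyme matures. Together they set wall stiffness during cell elongation, organ initiation, pollen tube growth and the response to pathogens.

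The libraries held 21559655 to 36921510 counts. Expression is given as CPM, the count of a gene scaled to library size, with TMM factors, and levels of different genes are compared only as FPKM, which also divides by gene length. A gene was called when it changed 2-fold or more and the adjusted p of edgeR's quasi-likelihood test lay below 0.05, with Benjamini-Hochberg adjustment over all genes tested. All errors of log2 fold changes are standard errors. TPST mRNA averaged 5.55 ± 0.63 CPM in untreated tpst shoots, against 15.9 ± 1.46 CPM in Col-0 shoots, and 14.3 ± 1.31 CPM in untreated tpst roots, against 28.5 ± 0.827 CPM in Col-0 roots (SD, n = 3 each). One library stood apart. The summed level of 13 photosynthesis genes was 1854 CPM in the third untreated tpst root library, against 273.9 and 234.4 CPM in the other two libraries of that group.

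Enough reads for testing were found for 35 members in shoots and 43 in roots, 34 of them in both tissues, 9 in roots only and 1 in shoots only. Of the 27 members tested in neither tissue, 18 had between 1 and 127 counts over all 36 libraries and 9 had none. A count of 0 allows a level of up to 0.0813 to 0.139 CPM, depending on the library, and covers counting error only. The members with no counts included PME5, known as VANGUARD1 (VGD1), and PME4, known as VGDH1, which act in pollen tube growth, and the pollen enzyme PME48. The pollen tube enzyme PPME1 had 3 counts in all libraries together and VGDH2 had 2. The description is at odds with the symbol for sks9, which is described as a putative pectinesterase but carries the name of a family related to multicopper oxidases.

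The members were expressed very unevenly in Col-0. PME3 (AT3G14310; TAIR10 chr3:4771833-4775258, minus strand), an enzyme with a described role in adventitious rooting and in nematode infection, had the highest level in both tissues. Its level was 267 ± 17.3 FPKM in Col-0 roots, against 285 ± 27.6 FPKM in Col-0 shoots (SD, n = 3 each). In roots it was followed by PME1 at 117 ± 15.4 FPKM, PME7 at 83.9 ± 12.7, PME20 at 55.8 ± 5.70, PME17 at 27.6 ± 3.03 and PME25 at 27.3 ± 2.36. PME17 and PME25 did not differ beyond their spread. In shoots PME3 was followed by PME68 at 61.5 ± 10.1 FPKM, PME25 at 54.8 ± 11.1, PME1 at 50.9 ± 5.63, AT3G49220 at 34.6 FPKM and PME44 at 24.6 FPKM. PME68, PME25 and PME1 overlapped within their SD. PME68 (AT5G47500) is the gene called PME5 in the literature on organ initiation at the shoot apex, and AT3G49220 is PME34, which acts in guard cells.

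**Figure D1:**
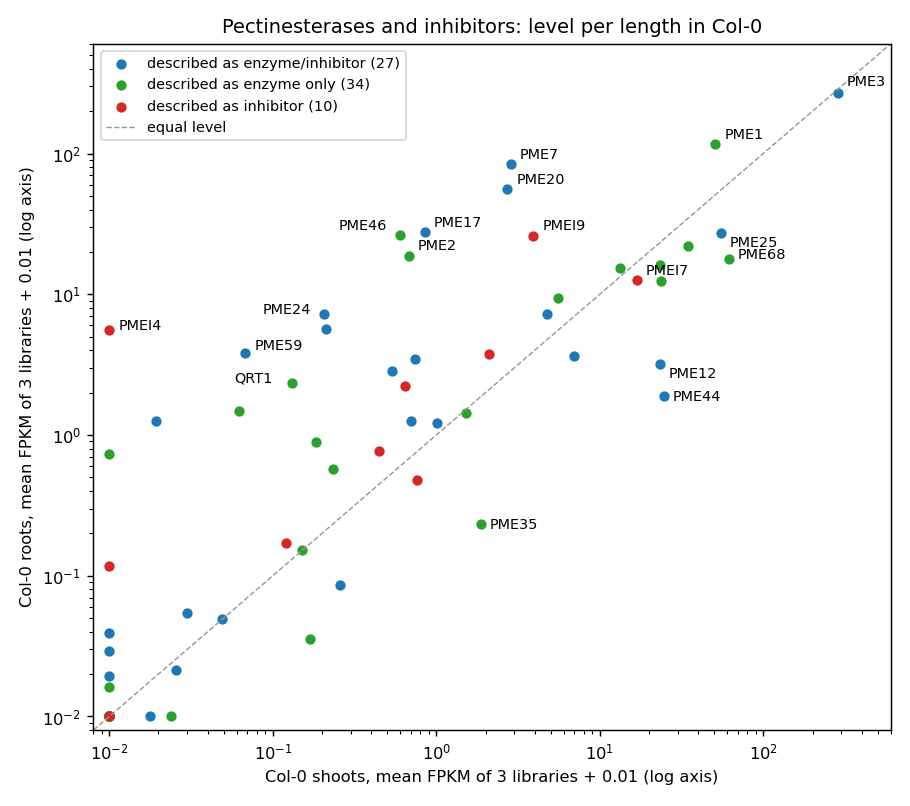
Mean level per gene length (FPKM of 3 libraries plus 0.01, log axes) of each of the 71 members in Col-0 roots (vertical) against Col-0 shoots (horizontal), coloured by description class, with a dashed line at equal levels. PME3 was the most abundant in both tissues, whereas PME7 averaged 83.9 FPKM in roots and 2.85 FPKM in shoots and PME44 averaged 1.88 FPKM in roots and 24.6 FPKM in shoots.

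Most of the tested members differed between the organs of wild-type plants. Col-0 roots against Col-0 shoots gave 25 called members, 19 higher and 6 lower in roots, which is 58.1% of the 43 tested in this fit, where 41.3% of all genes tested were called, 21.5% higher and 19.8% lower. CPM in this comparison used TMM factors of both tissues, so the values differ from those given within a tissue for the same libraries. PME7 had 210, 165 and 162 CPM in roots, against 7.68, 4.39 and 6.16 CPM in shoots (log2 fold change 4.89 ± 0.23). PME20 (log2 fold change 4.37 ± 0.20), PME46 (5.51 ± 0.30), PME2 (4.83 ± 0.29), PME24 (5.24 ± 0.40) and PME17 (5.07 ± 0.44) were also far higher in roots. PME24 is annotated by RefSeq as root hair specific 12, and PME2 is involved in root and hypocotyl elongation. PME44 was the clearest shoot gene, with 5.72, 6.70 and 7.76 CPM in roots, against 96.5, 81.1 and 85.7 CPM in shoots (log2 fold change −3.71 ± 0.14). The other members lower in roots were PME12 (log2 fold change −2.86), PME35 (−3.03), which acts in stem fibres, PME68 (−1.79), PME42 (−1.66) and PME25 (−1.01). Among the inhibitors, PMEI9 was higher in roots, with 27.4, 26.2 and 23.1 CPM in roots, against 3.43, 4.35 and 3.69 CPM in shoots (log2 fold change 2.73 ± 0.21). PMEI4 had 7.25, 4.63 and 3.30 CPM in roots, whereas none of the 3 Col-0 shoot libraries held a count, so it was at least 20.9-fold higher in roots when the lowest root library is set against a floor of 3 counts in a shoot library. PMEI4 and PMEI9 have described roles in the growth of hypocotyls and roots. The 25 calls became 24 to 27 when single libraries were left out.

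Several members lie end to end with a neighbouring member, and the counting was not stated to use strand. PME44 and PME45 overlap by 113 bases, and the gap is 13 bases between PME46 and PME47, 31 between PME24 and PME25, 240 between PMEI4 and PMEI7 and 321 between PME2 and PME1. Reads near these ends can be assigned to the wrong gene of the pair.

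When the members were summed, shoots differed between groups mainly through PME3. The summed level of the 27 genes joined to an inhibitor was 634 ± 48.9 FPKM in untreated tpst shoots, 546 after 30 min, 459 after 2 h, 278 ± 12.2 after 5 h and 296 ± 26.4 after 11 days of PSK, and 409 ± 30.2 FPKM in Col-0 shoots (SD, n = 3 each). PME3 alone made up 61.1%, 56.5%, 53.9%, 36.9% and 38.9% of the level of all members in those tpst groups, and 43.7% in Col-0 shoots. All members other than PME3 summed to 316 to 334 FPKM in the 5 tpst shoot groups and to 367 FPKM in Col-0 shoots. In roots PME3 held 32.0% to 34.9% in every group, while the sum of the others was 544 FPKM in untreated tpst, 496, 454 and 436 FPKM after 30 min, 2 h and 5 h of PSK, 463 FPKM after 11 days, and 552 FPKM in Col-0. The genes described as a pectinesterase alone summed to 180 FPKM in untreated tpst shoots and to 202, 210, 213 and 224 FPKM in the PSK groups in order of time, against 218 FPKM in Col-0 shoots. The inhibitors stayed between 16.9 and 24.7 FPKM in shoots and between 51.7 and 72.0 FPKM in roots. These sums were not tested, and in bulk tissue fewer cells of a type and less RNA per cell cannot be told apart.

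**Figure D2:**
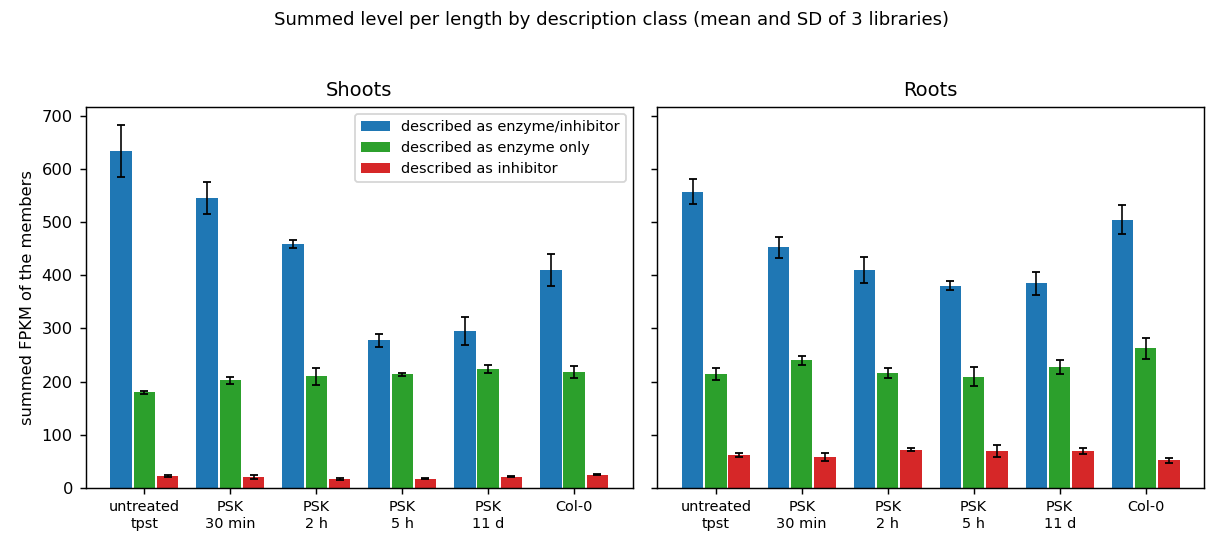
Summed level (FPKM) of the 3 description classes as mean (bars) and SD (error bars) of 3 libraries in shoots and roots, from untreated tpst through 30 min, 2 h, 5 h and 11 days of PSK to Col-0. The class joined to an inhibitor averaged 278 FPKM in shoots after 5 h of PSK and 634 FPKM in untreated tpst shoots.

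The response to PSK was compared at each time with untreated tpst, first in roots. The genes lowered were PME7, PME20 and PME25, all described as a pectinesterase joined to a pectinesterase inhibitor. All 3 were among the 6 most abundant members of Col-0 roots. The classes follow the descriptions, and protein regions were not checked. After 30 min 1 member was lower and 0 were higher, which is 2.33% of the 43 tested, against 0.454% of all genes tested (0.375% lower and 0.0796% higher). After 2 h 3 were lower and 0 were higher (6.98%, against 1.3% of all genes, 0.918% lower and 0.379% higher). The same 3 genes were lower after 5 h with 0 higher (6.98%, against 2.36%, 1.01% lower and 1.35% higher). After 11 days 2 were lower and 1 was higher (6.98%, against 1.91%, 0.81% lower and 1.1% higher). The median log2 fold change of the members was −0.01, −0.01, 0.00 and −0.04 at the 4 times, and that of all genes tested was −0.01, −0.01, 0.00 and −0.01. The 4 comparisons share the same untreated tpst libraries.

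PME7 (AT1G02810; chr1:618061-620502, plus strand) was the member called at 30 min. Its level was 155, 161 and 151 CPM in untreated tpst roots, 82.3, 83.9 and 60.6 CPM after 30 min, 59.9, 75.1 and 63.7 CPM after 2 h, 60.9, 82.8 and 89.9 CPM after 5 h and 85.9, 113 and 64.8 CPM after 11 days. All PSK libraries were below all untreated tpst libraries. The log2 fold change was −1.05 ± 0.19 after 30 min (edgeR adjusted p = 0.0148), −1.24 ± 0.19 after 2 h (0.0035) and −1.0 ± 0.19 after 5 h (0.0029), and −0.83 ± 0.19 after 11 days (0.00988), which is under the fold minimum. The call at 30 min was lost without the second PSK library (log2 fold change −1.12, adjusted p = 0.0728), without the third PSK library (−0.91) and without the first or the second untreated library (−1.04 and −1.02). The call at 5 h lies at the fold minimum and was lost without the first PSK library (−0.86) or the first or second untreated library (−1.0 and −0.98), under DESeq2's size factors in edgeR and under DESeq2 (both −0.99), and with replicate number as a block (−0.997). Col-0 roots had 244, 192 and 190 CPM, above every tpst library.

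PME20 (AT2G47550; chr2:19508929-19511792, plus strand) was called from 2 h on. It had 139, 168 and 174 CPM in untreated tpst roots, 114, 111 and 76.1 CPM after 30 min, 72.0, 81.2 and 74.6 CPM after 2 h, 50.1, 60.6 and 62.5 CPM after 5 h and 57.5, 72.6 and 50.9 CPM after 11 days. Every library from 30 min on was below the untreated ones. The log2 fold change was −0.68 after 30 min (edgeR adjusted p = 0.0466, under the fold minimum), −1.08 ± 0.16 after 2 h (0.00162), −1.47 after 5 h (4.8e-05) and −1.41 after 11 days (7.2e-05). Col-0 roots had 124, 117 and 143 CPM, above all PSK libraries from 2 h on. None of the calls of PME7, PME20 and PME25 was lost without the third untreated root library, which holds more photosynthesis transcripts than the others.

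PME25 (AT3G10720; chr3:3354406-3357754, minus strand) was also called from 2 h on. It had 164, 182 and 172 CPM in untreated tpst roots, 136, 135 and 90.3 CPM after 30 min, 70.0, 74.3 and 78.8 CPM after 2 h, 62.2, 58.5 and 64.6 CPM after 5 h and 43.8, 65.1 and 70.7 CPM after 11 days. From 2 h on these levels were also below the Col-0 roots, at 88.4, 94.9 and 106 CPM. The log2 fold change was −0.52 after 30 min (edgeR adjusted p = 0.142), −1.22 after 2 h (0.000888), −1.49 after 5 h (5.7e-05) and −1.53 after 11 days (5.45e-05).

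**Figure D3:**
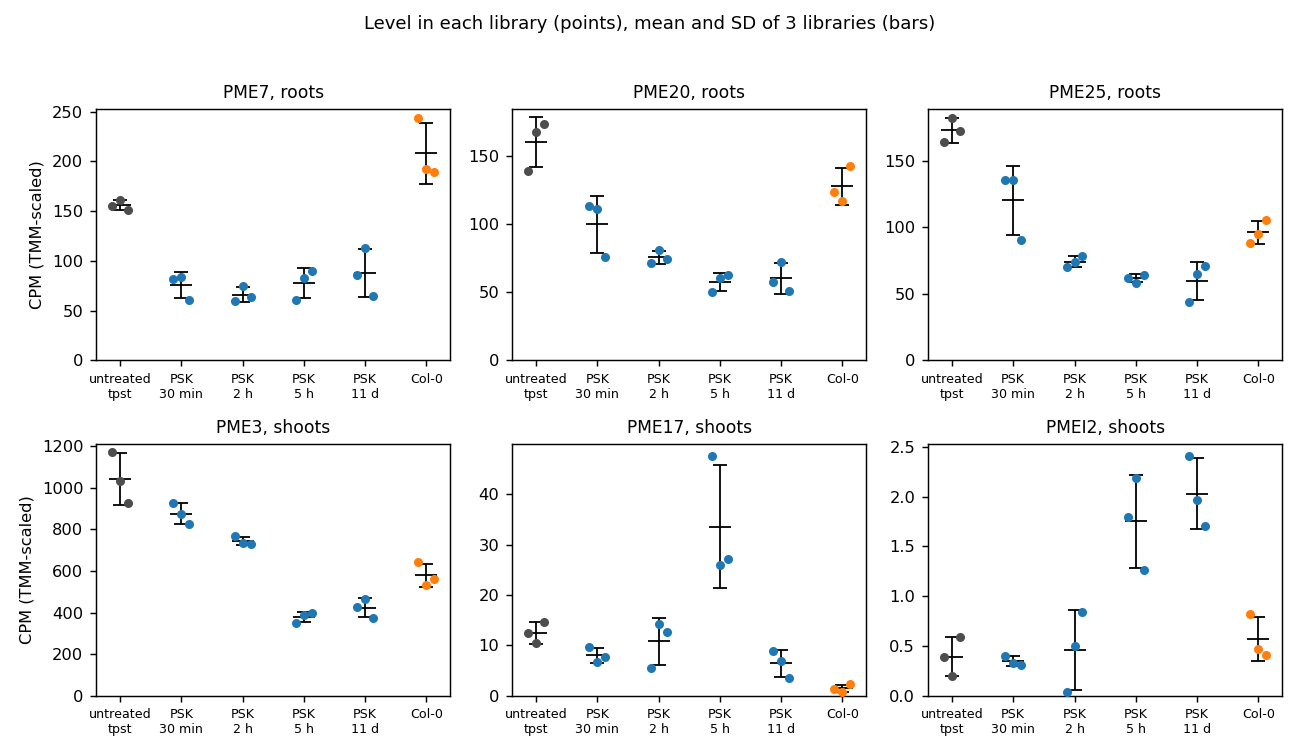
CPM of PME7, PME20 and PME25 in roots and of PME3, PME17 and PMEI2 in shoots, from untreated tpst through the 4 PSK exposures to Col-0, with 1 point per library and lines at the mean and SD of 3. PME20 and PME25 averaged 57.7 and 61.7 CPM in roots after 5 h of PSK and 160 and 173 CPM in untreated tpst roots, and PME3 averaged 378 CPM in shoots after 5 h of PSK and 1043 CPM in untreated tpst shoots.

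PME3 was the member that fell most in total level in shoots. The 250 bases before the annotated start of PME3, PME7, PME20 and PME25 are printed. They were read from the RefSeq assembly TAIR10.1, each 5′ to 3′ on the strand of its gene, at chr3:4775259-4775508 for PME3, chr1:617811-618060 for PME7, chr2:19508679-19508928 for PME20 and chr3:3357755-3358004 for PME25. Capitals mark the W-box core TTGAC, the sequence recognised by WRKY transcription factors, on either strand (GTCAA on the opposite one).
PME3: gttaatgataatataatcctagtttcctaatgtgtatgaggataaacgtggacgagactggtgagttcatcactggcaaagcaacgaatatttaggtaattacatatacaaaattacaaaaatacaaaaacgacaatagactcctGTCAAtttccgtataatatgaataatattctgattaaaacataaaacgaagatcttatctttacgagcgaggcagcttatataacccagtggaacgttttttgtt
PME7: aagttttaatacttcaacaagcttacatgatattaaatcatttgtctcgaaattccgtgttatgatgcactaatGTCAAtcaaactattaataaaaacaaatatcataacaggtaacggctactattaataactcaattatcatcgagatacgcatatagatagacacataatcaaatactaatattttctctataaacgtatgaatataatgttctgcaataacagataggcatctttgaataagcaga
PME20: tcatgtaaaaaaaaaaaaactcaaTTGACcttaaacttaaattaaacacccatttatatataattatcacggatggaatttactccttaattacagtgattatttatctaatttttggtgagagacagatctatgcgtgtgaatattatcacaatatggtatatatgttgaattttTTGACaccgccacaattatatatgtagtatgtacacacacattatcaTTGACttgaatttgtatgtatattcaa
PME25: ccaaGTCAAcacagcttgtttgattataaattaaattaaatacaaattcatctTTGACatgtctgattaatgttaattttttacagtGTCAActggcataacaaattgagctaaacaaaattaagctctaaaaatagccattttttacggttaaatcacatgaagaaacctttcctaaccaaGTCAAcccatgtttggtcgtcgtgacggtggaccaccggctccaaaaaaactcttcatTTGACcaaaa
The window of PME25 held 5 cores, that of PME20 held 3 and those of PME7 and PME3 held 1 each. At least 1 core was present in 44.9% of the 27413 windows of protein-coding genes and in 36 of the 71 members (50.7%), at least 3 cores in 3.38% of all windows and in 3 of the 71 members, and at least 5 in 0.113% of all windows and in 1 member. The G-box CACGTG, present in 6.48% of all windows, and the evening element AAATATCT, present in 4.79%, were in none of these 4 windows. Of the other members lower in PSK-treated than in untreated tpst shoots, PME8, PME64 and PMEI11 had 1 W-box core each in their windows. PME24, PME46 and PMEI10 had 0. PME17 and PMEI2, which rose in shoots, had 2 each, and PMEI6, which rose in roots, had 0. Such matches are a description of the sequence and not of binding, and the 4 genes printed were chosen after their values were seen.

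The other root members gave few calls. PMEI6, an inhibitor that acts in seed mucilage, rose after 11 days, with 3.20, 3.36 and 2.31 CPM in PSK-treated tpst roots, against 1.47, 1.71 and 1.1 CPM in untreated tpst roots (log2 fold change 1.05 ± 0.29, edgeR adjusted p = 0.0226). This call sits at the fold minimum and was lost without the first or second PSK library (0.99 and 0.94) or the first or the third untreated library (1.08 with adjusted p = 0.0514, and 0.90), and with only these 6 libraries fitted (adjusted p = 0.0565). PME3, the most abundant member, had log2 fold changes of −0.36 after 5 h (adjusted p = 0.0106) and −0.41 after 11 days (0.00676), both under the fold minimum. PME17 had 99.2, 84.2 and 40.1 CPM after 5 h of PSK, against 63.8, 50.0 and 47.7 CPM in untreated tpst roots, so the groups overlapped. Between 5 h and 30 min of PSK, edgeR called 0 members in roots, where 0.969% of all genes were called (0.707% higher and 0.262% lower), with 11 members at an unadjusted p under 0.05 and 0 called by DESeq2.

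In shoots members were called from 2 h on. After 30 min of PSK edgeR called 0 of 35 members, where 0.61% of all genes were called (0.36% higher and 0.25% lower), with 4 members at an unadjusted p under 0.05 and 0 called by DESeq2. After 2 h 0 were higher and 2 were lower (5.71%, against 4.12% of all genes, 1.9% higher and 2.22% lower). After 5 h 2 were higher and 5 lower (20%, against 16.9%, 7.7% higher and 9.22% lower). After 11 days 1 was higher and 7 lower (22.9%, against 14.7%, 6.96% higher and 7.69% lower). The shares called were thus close to or modestly above those of all genes, while the direction was mostly down. The median log2 fold change of the members was −0.11, −0.21, −0.50 and −0.60 at the 4 times, against −0.01, −0.01, −0.01 and −0.02 for all genes tested. The 16 tested genes joined to an inhibitor had medians of −0.16, −0.42, −0.73 and −0.92, and the 6 tested inhibitors had medians of −0.24, −0.33, −0.73 and −0.48, whereas the 13 tested genes described as a pectinesterase alone had medians of 0.05, 0.11, 0.06 and 0.28. These medians describe the classes and carry no test.

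PME3 carried the largest drop in level. It had 1171, 1033 and 926 CPM in untreated tpst shoots, 929, 872.5 and 826 CPM after 30 min, 769, 734 and 730 CPM after 2 h, 351, 388 and 397 CPM after 5 h and 429, 465 and 374 CPM after 11 days. The 2 h, 5 h and 11 day libraries all lay below every untreated tpst library, and those of 5 h and 11 days were also below the Col-0 shoots, at 643, 534 and 560 CPM. The log2 fold change was −0.25 after 30 min (edgeR adjusted p = 0.145), −0.49 after 2 h (0.000797, under the fold minimum), −1.46 ± 0.09 after 5 h (9.4e-10) and −1.30 ± 0.09 after 11 days (4.6e-09). Between 5 h and 30 min of PSK it fell by 1.21 on the log2 scale.

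PME64 and PME7 fell at both late times. PME64 had 4.61, 6.65 and 6.29 CPM after 5 h and 6.75, 6.39 and 8.30 CPM after 11 days of PSK, against 14.8, 14.4 and 14.4 CPM in untreated tpst shoots and 14.0, 13.5 and 14.2 CPM in Col-0 shoots. Its libraries after 5 h and 11 days were well apart from both untreated groups, with log2 fold changes of −1.31 ± 0.13 (edgeR adjusted p = 1.8e-07) and −1.03 (3.4e-06). PME7, a root-high gene, stood at 5.68, 5.83 and 6.34 CPM in untreated tpst shoots, 2.82, 3.51 and 2.84 CPM after 30 min, 2.38, 1.84 and 2.64 CPM after 2 h, 2.12, 3.01 and 1.92 CPM after 5 h and 1.63, 2.67 and 2.15 CPM after 11 days. No PSK library of PME7 overlapped the untreated ones, and it was called at 2 h (log2 fold change −1.38 ± 0.24, edgeR adjusted p = 0.000318), 5 h (−1.34, 0.000107) and 11 days (−1.47, 5.4e-05).

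**Figure D4:**
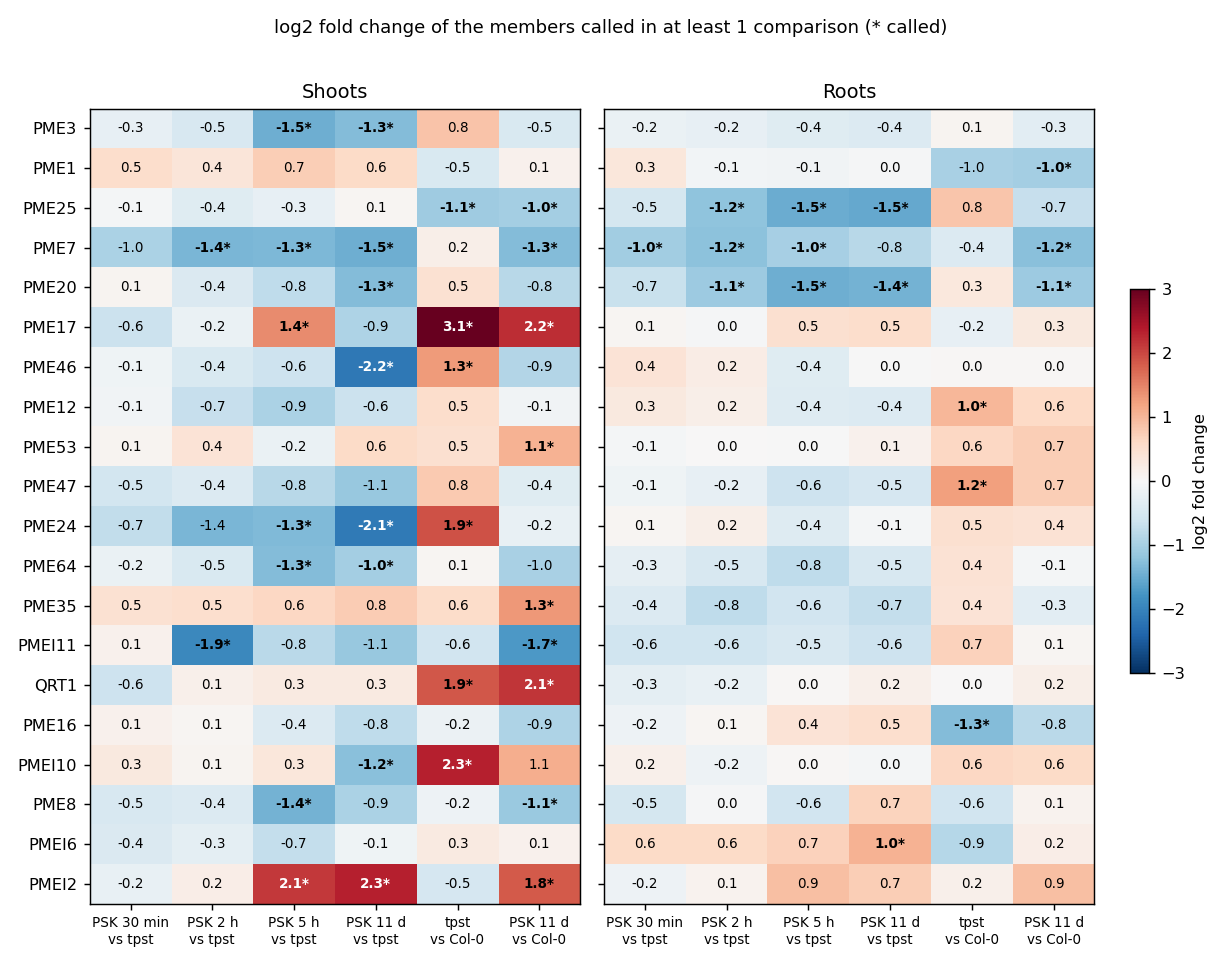
Log2 fold change (colour and printed value, with a star where called) of the 20 members called in at least 1 comparison within a tissue, for PSK against untreated tpst at the 4 times, untreated tpst against Col-0 and 11 days of PSK against Col-0, in shoots and roots. In roots the calls for PSK were confined to PME7, PME20, PME25 and PMEI6, whereas in shoots PME3, PME7, PME24 and PME64 were lowered at both 5 h and 11 days.

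2 members rose in shoots. PME17, which is induced by fungal infection and contributes to resistance, had 12.4, 10.4 and 14.6 CPM in untreated tpst shoots, 9.61, 6.72 and 7.75 CPM after 30 min, 5.47, 14.3 and 12.6 CPM after 2 h, 47.6, 26.0 and 27.1 CPM after 5 h and 8.91, 6.90 and 3.59 CPM after 11 days. Only the 5 h libraries were above all untreated ones (log2 fold change 1.43 ± 0.38, edgeR adjusted p = 0.00524), and at 11 days the log2 fold change was −0.94 (0.0621). PMEI2, an inhibitor known from the pollen tube tip, had 1.80, 2.19 and 1.27 CPM after 5 h and 2.41, 1.97 and 1.70 CPM after 11 days, against 0.387, 0.201 and 0.589 CPM in untreated tpst shoots. These values rest on 33 to 65 counts per PSK library and 5 to 17 counts per untreated library, with log2 fold changes of 2.12 ± 0.52 (0.00206) and 2.34 ± 0.52 (0.00103). Against 30 min of PSK, 2 members were higher at 5 h and 2 lower (11.4%, against 10.5% of all genes, 5.22% higher and 5.31% lower). These were PMEI2 (log2 fold change 2.34), PME17 (2.07), PME3 and PME64 (−1.10), of which PME64 was lost without the first 5 h library (−0.96).

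The remaining members lowered in shoots were at low levels. PMEI11, one of the inhibitors induced in immunity, had 0.125, 0.191 and 0.627 CPM after 2 h, against 0.946, 1.45 and 1.21 CPM in untreated tpst shoots (log2 fold change −1.93 ± 0.51, edgeR adjusted p = 0.00915), and the call was lost without the second 2 h library (−1.66, adjusted p = 0.0541). PME8 was lower after 5 h (−1.42 ± 0.38, adjusted p = 0.00419). PME24 was lower after 5 h (−1.33 ± 0.54, 0.0424) with overlapping libraries, a call that was lost without the first or second 5 h library (−1.26 and −1.07) or the first or second untreated library (−1.43 and −0.82), with no filter on low counts (adjusted p = 0.0502), with only these 6 libraries (0.052) and with replicate number as a block (0.0537). After 11 days PME24 (−2.13 ± 0.57, 0.00452), PME46 (−2.15 ± 0.38, 0.000144), PME20 (−1.29 ± 0.23, 0.000117) and the immunity-related inhibitor PMEI10 (−1.24 ± 0.44, 0.0249) were lower. PMEI10 had only 40, 28 and 13 counts in the 11 day libraries. Its call and that of PME64 at 11 days were not followed singly in the alternative runs. PME46 had 0.557, 0.438 and 0.807 CPM after 11 days, against 2.71, 3.62 and 1.66 CPM in untreated tpst shoots.

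Abundant shoot members outside the calls moved by less than the fold minimum. PME1 had log2 fold changes of 0.54, 0.37, 0.74 and 0.59 and edgeR adjusted p-values of 0.0111, 0.0204, 2.15e-05 and 0.00027. It had 117, 113 and 95.2 CPM after 11 days, against 64.2, 71.6 and 80.7 CPM in untreated tpst shoots. PME44 and PME12 had log2 fold changes of −0.83 (9.7e-06) and −0.94 (7e-05) after 5 h. The root-high inhibitor PMEI9, at only 4.73, 4.86 and 2.87 CPM in untreated tpst shoots, had −0.94 (edgeR adjusted p = 0.00902) at the same time. PME68, at 61.4, 58.7 and 54.0 CPM after 5 h against 49.5, 53.9 and 52.8 CPM in untreated tpst shoots, was not called.

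Other measured signals moved with the PSK groups. A list of 11 clock genes that peak around dawn had median log2 fold changes of 0.45, 0.95, 2.06 and 2.08 in shoots and of 0.27, 0.65, 2.13 and 2.04 in roots at 30 min, 2 h, 5 h and 11 days, and the part of harvest time in the results was not tested. The summed level of 12 root marker genes, the abundant PYK10 left out, was 13.7 to 25.0 CPM in untreated tpst shoots, 15.8 to 18.3 after 30 min, 9.11 to 17.5 after 2 h, 9.95 to 11.1 after 5 h and 5.96 to 8.77 after 11 days, and 4.97 to 10.4 CPM in Col-0 shoots, whereas root libraries had 208 to 362 CPM. Of the 11 root markers tested in shoots, 4 were lower and 0 higher after 5 h, where 9.22% of all genes were lower, and 5 lower and 0 higher after 11 days, where 7.69% were lower. Among the members lowered in shoots, PME7, PME20, PME24 and PME46 are root-high genes, and the part of root tissue in their shoot values was not tested.

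**Figure D5:**
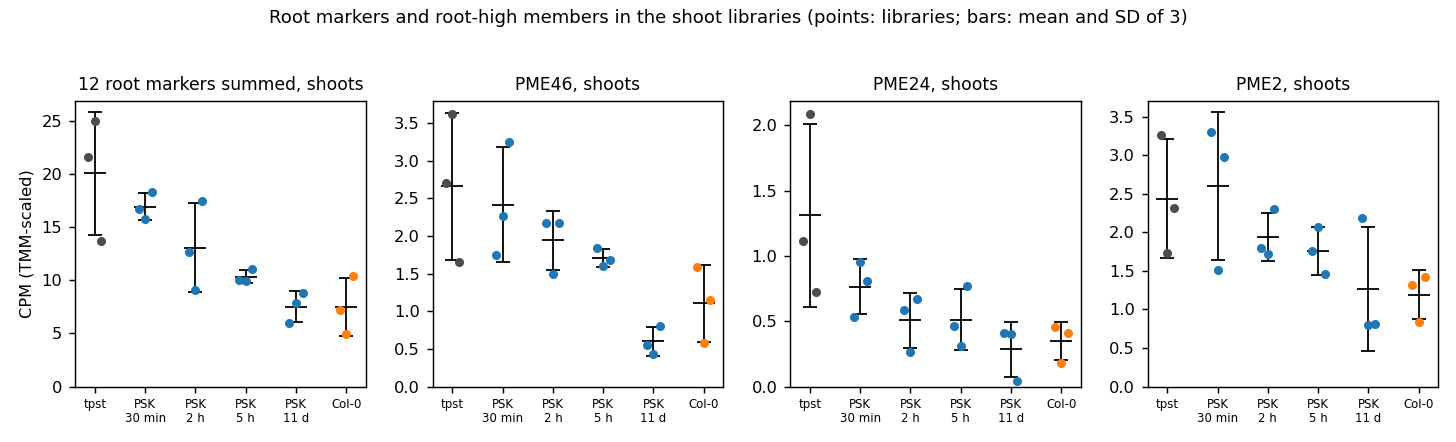
CPM in the shoot groups of 12 root markers summed and of the root-high members PME46, PME24 and PME2, with 1 point per library and lines at the mean and SD of 3. The untreated tpst libraries have 13.7 to 25.0 CPM of root markers and the Col-0 libraries 4.97 to 10.4 CPM, and among the untreated tpst libraries the second has the highest values of the markers, PME46 and PME24 and the lowest value of PME2.

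The effect of the mutation alone was read from untreated tpst against Col-0. In shoots 5 members were higher and 1 lower in untreated tpst against Col-0, which is 17.1% of 35, where 5.55% of all genes were called, 4.3% higher and 1.26% lower. PME17 differed most, with 12.4, 10.4 and 14.6 CPM in untreated tpst shoots, against 1.28, 0.762 and 2.29 CPM in Col-0 shoots (log2 fold change 3.14 ± 0.47, edgeR adjusted p = 0.000281). PMEI10 had 3.35, 1.77 and 2.32 CPM in tpst, against 0.638, 0.508 and 0.321 CPM in Col-0 (2.32 ± 0.49, 0.00196). Neither overlapped between the genotypes. PME24 (1.92 ± 0.57, 0.0193), PME46 (1.28 ± 0.36, 0.0145) and QRT1 (1.87 ± 0.63, 0.0364), an enzyme needed for the separation of pollen grains, were also higher. PME24 and PME46 were lost without the second tpst library (1.40 and 0.99) or the second Col-0 library (1.59 and 0.97), and QRT1, with 2 to 6 counts in each Col-0 library, was lost without the first or second Col-0 library (1.61 and 1.77) or the second or the third tpst library (1.70 and 1.69). Of the 11 root markers tested, 4 were higher and 0 lower in tpst shoots, where 4.3% of all genes were higher, and PME17, PME24, PME46 and QRT1 are root-high, so their values stand beside that difference, whose part was not tested. PMEI10 was not called between Col-0 roots and shoots (log2 fold change 0.79 ± 0.48).

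PME25 was the member lower in tpst shoots, with 50.9, 60.5 and 96.0 CPM, against 125, 133 and 178 CPM in Col-0 shoots (log2 fold change −1.07 ± 0.25, edgeR adjusted p = 0.00658). The call was lost without the first or second tpst library (−0.89 and −0.98), without the third Col-0 library (−0.87) and when only these 6 libraries were fitted (−1.05, adjusted p = 0.0717). PME3 had 1171, 1033 and 926 CPM in tpst shoots, against 643, 534 and 560 CPM in Col-0 shoots, without overlap but under the fold minimum (0.85 ± 0.09, adjusted p = 6.8e-06).

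In roots 2 members were higher and 1 lower in untreated tpst against Col-0 (6.98% of 43, against 6.44% of all genes, 2.95% higher and 3.49% lower), a share near that of all genes. PME47 had 35.8, 33.6 and 33.4 CPM in tpst, against 15.8, 15.2 and 12.6 CPM in Col-0 (log2 fold change 1.24 ± 0.24, edgeR adjusted p = 0.00185). PME12 had 15.2, 17.4 and 14.6 CPM in tpst, against 7.16, 8.56 and 7.78 CPM in Col-0 (1.00 ± 0.21, 0.00313), a call at the fold minimum. This call was lost without the second tpst library (0.93), without the first or the third Col-0 library (0.94 and just under 1) and with DESeq2. Under DESeq2's size factors in edgeR, only 1 member was called higher in this comparison. PME12 is a shoot-high gene. Of 13 photosynthesis genes, 5 were higher and 0 lower in tpst roots, where 2.95% of all genes were higher. Their summed level was 273.9, 234.4 and 1854 CPM in the tpst libraries in order, against 233.4 to 248.1 CPM in Col-0 roots. Only the third tpst library was thus far above Col-0, and the part of this difference in the PME12 values was not tested. PME16 had 2.74, 2.74 and 2.35 CPM in tpst, against 7.35, 4.98 and 7.08 CPM in Col-0 (−1.31 ± 0.21, 0.000434). PME1, the second most abundant root member, lay just outside the fold minimum, with 153, 152 and 158 CPM in tpst, against 298, 265 and 346 CPM in Col-0 (−0.98 ± 0.12, 5.64e-05).

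The tpst plants exposed to PSK for 11 days were also compared with Col-0, and some members differed. In shoots 11 days of PSK against Col-0 gave 5 higher and 4 lower members (25.7%, against 19.7% of all genes, 10.5% higher and 9.16% lower). PME17 was higher, with 8.91, 6.90 and 3.59 CPM, against 1.28, 0.762 and 2.29 CPM in Col-0 (log2 fold change 2.20 ± 0.49, edgeR adjusted p = 0.00139), and QRT1 (2.15, 0.00619), PMEI2 (1.84, 0.00433), PME35 (1.31 ± 0.19, 9.7e-06) and PME53 (1.05 ± 0.25, 0.00203) were higher too. PME35 had 9.28, 8.39 and 7.22 CPM after 11 days of PSK, against 3.19, 3.01 and 3.90 CPM in Col-0 shoots, with no overlap. PMEI11 (−1.71, 0.0042), PME7 (−1.30, 0.000153), PME8 (−1.10, 0.016) and PME25 (−1.02, 0.00317) were lower. Of these members, PME17, QRT1 and PME25 were also called in untreated tpst against Col-0 shoots, in the same direction, and the others were not. In untreated tpst, Col-0 and 11 day PSK shoots, PMEI2 averaged 0.392, 0.568 and 2.03 CPM. In the same order PME35 averaged 4.93, 3.37 and 8.30 CPM, and PME7 averaged 5.95, 5.32 and 2.15 CPM. The call was lost for PME53 without the third PSK library (0.84), for PME25 without the first PSK library (−0.85) or the third Col-0 library (−0.81) or with no filter on low counts (−0.99), and for PME8 without the first or the third library of either group (−0.99 and −0.90 for PSK, −0.94 and −0.95 for Col-0).

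In roots 11 days of PSK against Col-0 gave 0 higher and 3 lower members (6.98%, against 7.81% of all genes, 3.62% higher and 4.19% lower), again a share near that of all genes. PME1 had 164, 164 and 122 CPM, against 298, 265 and 346 CPM in Col-0 (log2 fold change −1.02 ± 0.12, edgeR adjusted p = 3.1e-05), a call that was lost with no filter on low counts (−0.99) or with only these 6 libraries fitted (−0.99). PME7 (−1.25, 0.000351) and PME20 (−1.09, 0.000172) were the other members lower. PME1 and PME20 were lost without the third PSK library (−0.90 and −0.99) or the third Col-0 library (−0.91 and −0.99). Between 11 days of PSK and untreated tpst roots the log2 fold change of PME1 was −0.04 ± 0.12.

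Of the 44 members tested in at least 1 tissue, 24 were called in none of the 14 comparisons within a tissue. Among them were abundant genes, with levels of 22.0 FPKM in roots and 34.6 FPKM in shoots of Col-0 for AT3G49220, 12.4 and 23.6 FPKM for PME31, 15.3 and 13.3 FPKM for AT5G09760, 16.1 and 23.3 FPKM for sks9 and 12.5 and 16.8 FPKM for PMEI7, an inhibitor of PME3 in hypocotyls. PMEI7 had its strongest difference in shoots after 5 h of PSK (log2 fold change −0.75, edgeR adjusted p = 0.000346), and PME32 after 11 days (−0.90, 5.97e-05), both under the fold minimum. PME6, which acts in guard cells and seed mucilage, was low in Col-0, with 1.21 FPKM in roots and 1.00 FPKM in shoots. The seed mucilage enzyme PME58 had 18 counts and the pollen inhibitor PMEI1 had 71 counts over all libraries, too few to test.

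Whether the organs differed in their response was tested in a fit of both tissues, as roots minus shoots. No member was called at 30 min (0 by edgeR and 0 by DESeq2, 1 at an unadjusted p under 0.05, with 0.00448% of all genes called) or at 2 h (0 by edgeR, 1 by DESeq2, 10 at an unadjusted p under 0.05, with 1.18% of all genes called). At 5 h 3 members differed (6.98%, against 7.43% of all genes), at 11 days 8 differed (18.6%, against 6.42%), and the effect of the mutation differed for 5 (11.6%, against 6.62%). PME3 after 5 h had a log2 fold change of −0.36 in roots and −1.46 in shoots. PME25 went the other way, with −1.49 in roots and −0.25 in shoots after 5 h, and −1.53 in roots and 0.05 in shoots after 11 days. For the mutation PME25 was opposite in the organs, 0.84 in roots and −1.07 in shoots, and each of its 3 tpst root libraries was above each Col-0 root library whereas each of its 3 tpst shoot libraries was below each Col-0 shoot library. PME17 had −0.24 in roots and 3.14 in shoots for the mutation.

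Other genes of pectin metabolism were counted by their descriptions, with the members left out. In shoots 16.9% of all genes were called after 5 h (7.7% higher and 9.22% lower) and 14.7% after 11 days (6.96% higher and 7.69% lower), and these counts carry no test. Of 12 genes described as invertase or pectin methylesterase inhibitors, 1 was higher and 4 lower in shoots after 5 h of PSK, and 2 were higher and 3 lower after 11 days. Of 39 genes whose description contains pectate lyase or pectin lyase, 1 was higher and 8 lower after 5 h, and 2 higher and 10 lower after 11 days. This word match would take in lyase-like names too, and the enzyme activity of these genes was not checked. Of 8 genes described as polygalacturonases, which cut demethylated homogalacturonan, 1 was higher and 3 lower at each of these times. Of 12 galacturonosyltransferases, which build the polymer, 1 was higher and 2 lower after 5 h, and 0 were called after 11 days. Wall-associated kinases, which bind pectin, had 2 higher and 2 lower of 18 after 5 h and 2 higher and 3 lower after 11 days. In roots after 5 h, where 2.36% of all genes were called, these lists gave 1 higher and 0 lower of 12 inhibitors. They gave 0 called of 37 genes matched as lyases and 1 higher and 0 lower of 8 polygalacturonases. Of 12 galacturonosyltransferases 0 were called, and of 20 kinases 0 were higher and 1 lower.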

How the data were processed

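Poly(A) RNA of shoots and roots was sequenced as read pairs by the authors, trimmed with fastp, mapped with HISAT2 2.0.5 to TAIR10, and assigned to genes by featureCounts 1.5.0-p3. Of the deposited tables, the raw counts were used, for 32833 genes in 36 libraries, 3 in each of 12 groups. The authors' FPKM and comparison columns (fold changes and p-values) were not used, and FPKM given here was computed from the counts, the deposited gene lengths and TMM factors of both tissues. Per tissue, edgeR 4.0.16 in R 4.3.3 (filterByExpr with a minimum count of 10, TMM, robust quasi-likelihood fit of 6 group means over 18 libraries) tested 20811 genes in shoots and 21358 in roots. Comparisons between organs used 1 fit of all libraries (22303 genes). The procedure was tested on simulated data. Alternatives were DESeq2 1.42.0, its size factors in edgeR, no filter on low counts, no fold minimum, a fit of the 6 libraries of a comparison alone, a replicate block, and leaving out each library in turn.

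Members and gene lists were chosen with earlier results of these data known. 1 further row that meets the rule is not reported here. The text names up to 5 called members with the highest and 5 with the lowest log2 fold change per comparison within a tissue, up to 5 with the smallest p between tissues, the 6 most abundant in each Col-0 organ and 16 members with a described role, and others beside them were chosen after their values were seen. All 71 members had the same start and end in the RefSeq annotation of TAIR10.1, from which sequences were read. Replicates of each group differed by more than sampling noise (lowest chi-square per degree of freedom 6.30). The labels do not tie equal replicate numbers to a shared batch, and the libraries were not treated as paired.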

Additional observations from a re-analysis of the deposited data

Results flagged for a closer look

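These members differed between roots and shoots in their response to the same contrast, by edgeR's test of the difference itself over all genes. Differences are log2 fold change in roots minus that in shoots, with standard errors and adjusted p-values. After 5 h of PSK the difference was 1.07 ± 0.13 for PME3 (adjusted p = 1.37e-06), −1.26 ± 0.31 for PME25 (0.00364) and 1.12 ± 0.30 for PMEI9 (0.00692), whose own log2 fold changes were 0.21 in roots and −0.94 in shoots. The call of PME3 was lost without the first untreated shoot library (0.98), and that of PMEI9 without the first 5 h root library (0.97), the third 5 h shoot library (0.86) or the second untreated shoot library (0.99).

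After 11 days of PSK it was −1.60 ± 0.31 for PME25 (edgeR adjusted p = 0.000459), 2.13 ± 0.44 for PME46 (0.00102), 2.03 ± 0.57 for PME24 (0.0115), 1.21 ± 0.38 for PME2 (0.023), 1.45 ± 0.49 for PME17 (0.0352), 1.25 ± 0.43 for PME16 (0.0412), −1.52 ± 0.53 for PME35 (0.0415) and 1.60 ± 0.57 for PME8 (0.048). PME46, PME24, PME2 and PME17 are root-high genes whose shoot values stand beside the root markers given above. PME46 had log2 fold changes of −0.01 in roots and −2.15 in shoots, and PME24 had −0.06 in roots and −2.13 in shoots. PME24 was lost without the second untreated shoot library (1.52, adjusted p = 0.0775), and PME2 without the second or the third 11 day shoot library (0.96 and 0.99) or the first untreated shoot library (0.96). PME17 kept its call only without the second 11 day or first untreated root library or the first 11 day or second untreated shoot library, and lost it without each of the other 8 of these 12 libraries (adjusted p up to 0.0927, difference 1.17 without the third 11 day shoot library). PME16, PME35 and PME8 were not followed singly when libraries were left out. Without 1 library at a time, the 8 calls at 11 days became 4 to 8. They became 4 without the second untreated root library, the second untreated shoot library or the second 11 day shoot library.

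For the mutation, untreated tpst against Col-0, it was 1.94 ± 0.31 for PME25 (edgeR adjusted p = 0.000102), −3.35 ± 0.55 for PME17 (0.000177), 1.17 ± 0.20 for PME68 (0.000211), −1.77 ± 0.39 for PME2 (0.00208) and −1.22 ± 0.41 for PME46 (0.0388). The call of PME46 was lost with no filter on low counts (adjusted p = 0.0504) and without the first Col-0, second tpst or the third tpst root library, or the second or the third Col-0, first or second tpst shoot library (differences of −0.87 to −1.26). PME68, a shoot-high gene, had log2 fold changes of 0.55 in roots and −0.59 in shoots. Its level was 34.0, 37.6 and 60.5 CPM in untreated tpst roots, highest in the third library, where the photosynthesis genes are highest too, and 0.86 was the difference without that library, under the minimum of 1.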

How the results depend on the processing

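Of 68 named results, 45 kept their call in every alternative run, 0 reversed and 23 lost it in at least 1, all 23 when a library was left out, 2 under DESeq2, 2 under its size factors, 4 with no filter, 4 with only 6 libraries and 2 under the replicate block. Same-numbered libraries deviated together (correlation over 0.1) in 28 of 45 pairs in shoots and 27 of 45 in roots (median correlation 0.15 and 0.212, against −0.067 and −0.089 for different numbers). The labels do not tie equal numbers to a batch, so the main fits did not take the numbers as pairs. As a hint from the data, not the design, 13 of 18 libraries of each tissue were most like their own number. The replicate block moved no count of calls by over 1.5 times. Under it PME24 in shoots (−1.31, adjusted p = 0.0537) and PME7 in roots (−1.0) after 5 h were no longer called. Without the fold minimum, members higher and lower in shoots were 1 and 1 after 30 min, 2 and 6 after 2 h, 5 and 11 after 5 h, 5 and 12 after 11 days, and 9 and 5 for tpst against Col-0, with 7 lower at 5 h against 30 min and 11 lower at 11 days against Col-0. In roots 2 were lower after 30 min and 5 after 5 h, 3 were higher and 4 lower after 11 days, 10 higher and 4 lower for tpst against Col-0, 5 lower at 5 h against 30 min, and 9 higher and 7 lower at 11 days against Col-0. Roots minus shoots then gave 8 at 5 h, 13 at 11 days and 8 for the mutation. DESeq2 gave 1 member for roots minus shoots at 2 h, 9 for the mutation, 1 higher in roots after 5 h and 1 higher in tpst roots, where its size factors also gave 1. With no filter 2 were higher in shoots after 11 days. With only 6 libraries 0 were higher in roots after 11 days, 1 after 2 h, and 0 were lower in tpst shoots. The cause was not tested. Leaving out 1 library gave 0 to 1 lower in roots after 30 min, 2 to 4 lower and 0 to 1 higher after 5 h, 2 to 3 lower and 0 to 1 higher after 11 days, 0 to 1 lower at 5 h against 30 min, 1 to 2 higher and 1 to 3 lower in tpst roots, and 1 to 4 lower in roots at 11 days against Col-0. In shoots it gave 1 to 3 lower after 2 h, 4 to 6 lower after 5 h, 6 to 8 lower after 11 days, 2 to 5 higher and 0 to 1 lower for tpst against Col-0, 1 to 4 lower at 5 h against 30 min, and 5 to 6 higher and 2 to 5 lower at 11 days against Col-0. Roots minus shoots gave 0 to 3 at 2 h, 2 to 4 at 5 h, 4 to 8 at 11 days and 3 to 6 for the mutation. Members under 1 CPM rest on few counts.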

Other observations

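Other pectin genes were counted between the genotypes without a test, where 6.44% of all genes were called in roots and 5.55% in shoots for untreated tpst against Col-0. Of 37 genes matched by description as pectate or pectin lyases and tested in roots, 9 were higher and 1 lower in untreated tpst. Of 39 tested in shoots 5 were higher and 0 lower. Of 12 genes described as invertase or pectin methylesterase inhibitors, 0 were higher and 3 lower in tpst roots, and 1 higher and 0 lower in tpst shoots. Wall-associated kinases had 3 higher and 1 lower of 18 in tpst shoots and 0 higher and 1 lower of 20 in tpst roots. Among single genes lower in shoots after 5 h of PSK than in untreated tpst were the inhibitor-type genes AT5G62360 (log2 fold change −2.54 ± 0.24, edgeR adjusted p = 1.68e-07) and AT5G20740 (−1.88 ± 0.15, 1.14e-08). The lyase AT1G67750 (−2.22 ± 0.24, 4.15e-07) and the polygalacturonase AT1G80170 (−2.17 ± 0.17, 7.39e-09) were lower too. WAK4 was higher (2.38 ± 0.43, 0.000125). These single genes were chosen after their values were seen.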
